A study of Mus musculus with 8 samples.

Results

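Expression of Foxo1 and of genes of the phosphoinositide 3-kinase (PI3K) pathway was examined in germinal centre B cells of the mouse spleen. The set held 9 genes of the 55421 gene identifiers measured, namely the transcription factor genes Foxo1 and Foxo3, the PI3K genes Pik3cd, Pik3r1 and Pik3ap1, the lipid phosphatase gene Inpp5d and the kinase genes Akt1, Akt2 and Gsk3b. They were chosen by name as FOXO factors and members of the route from PI3K to AKT, with earlier results of these data known. All 9 passed the filter on low counts. RNA came from C57BL/6 mice aged 8 to 10 weeks at day 10 after immunization. The mice had 2 intact copies of Smarca4 (Smarca4+/+, labelled WT) or 1 (Smarca4+/-, labelled HET). The protein made from Smarca4, known as BRG1, is the motor of SWI/SNF complexes, which move nucleosomes. Germinal centre B cells had been isolated from spleen with magnetic beads against PNA-binding cells. CB and CC in the library labels were taken to mean centroblasts, which are dark zone B cells, and centrocytes, which are light zone B cells. Each of the 4 groups held 2 libraries: Smarca4+/+ CB, Smarca4+/- CB, Smarca4+/+ CC and Smarca4+/- CC. Whether the Smarca4 copy was lost in all cells or in B cells only, and which exons were removed, is not stated in the labels. Nor do they say whether the libraries of a group came from separate mice, so a p-value covers only how far these libraries differ, and that may be technical.

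In B cells the antigen receptor and its coreceptors recruit PI3K, which makes the lipid messenger PIP3 at the membrane. PIP3 draws in the kinase AKT, which phosphorylates FOXO factors so that they leave the nucleus, and which also inhibits GSK3 kinases. The phosphatase SHIP1, encoded by Inpp5d, turns PIP3 into another lipid and so limits this route. In germinal centres FOXO1 is known as a factor of the dark zone, where B cells divide and mutate their antibody genes, while PI3K signalling is associated with the light zone. RNA levels do not show phosphorylation or where the FOXO proteins are.

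Depth differed between the fractions, from 18357578 to 24341805 total counts in CB but from 526353 to 837558 in CC. Levels are given as CPM, counts scaled to a common library total, after TMM scaling, a correction for differences in library composition. Smarca4 itself stood at 897 and 1002 CPM in Smarca4+/+ CB, 734 and 702 CPM in Smarca4+/- CB, 322 and 316 in Smarca4+/+ CC and 244 and 311 in Smarca4+/- CC, lower in the libraries labelled Smarca4+/- in each fraction, without an adjusted p under 0.05 (edgeR adjusted p = 1 in CB and 0.607 in CC). The B cell gene Ms4a1 was at 588.5 to 760 CPM in every library of both fractions. It is 1 of 10 germinal centre B cell markers, which summed to 3466 to 3937 CPM in CB and 2593 to 3321 in CC. For 9 of these 10 the log2 fold change from CB to CC, averaged over genotypes, was negative, against 62.5% of all genes tested. The 6 dark zone markers summed to 4421 to 5378 CPM in CB and 1184 to 2891 in CC. Most of each sum was Mki67, at 3681 to 4527 CPM in CB and 1027 to 2574 in CC. All 6 had negative log2 fold changes from CB to CC, averaged over genotypes. The 7 light zone markers summed to 299 to 369 CPM in CB and 804 to 1103 in CC. Both sets went in the direction of the labels. Markers of macrophages, erythroid cells, T cells and endothelial or stromal cells were higher in CC, and those of plasma cells were not. The 10 macrophage markers summed to 45.8 to 221 CPM in CB and 1467 to 3292 in CC. The 7 erythroid markers summed to 5.04 to 12.8 CPM in CB and 119 to 749 in CC. For the 10 T cell markers the sums were 110.5 to 134.7 CPM in CB and 200 to 534 in CC. Most of the CB sum was Lck, at 108 to 132 CPM in CB and 100 to 204 in CC. The median log2 fold change of the 10 T cell markers from CB to CC, averaged over genotypes, was 6.35. The 6 endothelial and stromal markers summed to 38.8 to 52.0 CPM in CB and 98.4 to 175 in CC. For the 5 plasma cell markers the sums were 462 to 574 CPM in CB and 418.5 to 525 in CC. The 5 neutrophil markers summed to 0 to 8.38 CPM in CB, 0 in Smarca4+/+ CC and 207 and 40.3 CPM in Smarca4+/- CC. Among the CC libraries, Smarca4+/- CC replicate 2 stood apart with the highest dark zone sum (2891 CPM, with Mki67 at 2574 CPM). It also had the lowest macrophage (1467 CPM) and erythroid (119 CPM) sums. For the 9 genes, values that changed call or sign or moved by over 1.5 times without it are given both ways. The part of these other cells in the results below was not tested.

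Foxo1 and Akt1 were both lower in CC than in CB. Across both genotypes Foxo1 stood in CC at 0.508 of its CB level and Akt1 at 0.519, and the fall was seen in each genotype. They were the only 2 of the 9 genes that passed the test in the comparison averaged over genotypes, against 6.96% of all 12997 genes tested that fell. None of the 9 rose, against 6.6% of all genes. Of the other 7 genes, Gsk3b and Pik3cd had negative log2 fold changes of smaller size, Inpp5d, Pik3ap1 and Akt2 lay close to 0, and Foxo3 and Pik3r1 were positive. In bulk RNA, fewer cells that express a gene and less of its RNA per cell cannot be told apart.

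Foxo1, the FOXO factor of germinal centre B cells (ENSMUSG00000044167.6, mm10, chr3:52268336-52353221, plus strand), stood at 418 and 395 CPM in Smarca4+/+ CB and at 414 and 416 CPM in Smarca4+/- CB. In CC it stood at 191 and 227 CPM in Smarca4+/+ and at 183 and 231 CPM in Smarca4+/- libraries. Every CC library lay below every CB library, with the highest CC value (231 CPM) far under the lowest CB value (395 CPM). The CC values rest on 107 to 195 counts a library and the CB values on 7849 to 8650. The log2 fold change from CB to CC was -0.96 (SE 0.20, edgeR adjusted p = 0.0149) in Smarca4+/+, -1.0 (SE 0.19, edgeR adjusted p = 0.0174) in Smarca4+/- and -0.98 (SE 0.14, 95% interval -1.28 to -0.68, edgeR adjusted p = 0.000893) for the mean of both. The averaged fall passed the test in all 19 alternative analyses, with values of -1.09 to -0.77, whereas the call within Smarca4+/+ was lost without CB replicate 1 (adjusted p = 0.132), CB replicate 2 (0.111) or CC replicate 1 (0.0506). Within Smarca4+/- it was lost without CB replicate 1 (adjusted p = 0.179), CB replicate 2 (0.163), CC replicate 1 (0.112) or the Smarca4+/+ CB replicate 2 (0.0507). An antisense gene, Gm20402, overlaps Foxo1 on the opposite strand, and the strand setting of the counting is not given in the sources used here, so its reads cannot be told apart from those of Foxo1.

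Akt1, which encodes an AKT kinase (ENSMUSG00000001729.14, mm10, chr12:112653821-112674884, minus strand), stood at 367 and 378 CPM in Smarca4+/+ CB and at 382 and 390 CPM in Smarca4+/- CB. The CC libraries held 166 and 186 CPM in Smarca4+/+ and 236 and 203 CPM in Smarca4+/- cells, so that the fractions did not overlap. The log2 fold change was -1.08 (SE 0.19, edgeR adjusted p = 0.00683) in Smarca4+/+, -0.82 (SE 0.18, edgeR adjusted p = 0.0326) in Smarca4+/- and -0.95 (SE 0.13, 95% interval -1.23 to -0.66, edgeR adjusted p = 0.000821) for the mean of both. This averaged fall also passed in all 19 alternatives, with values of -1.02 to -0.73. The call within Smarca4+/+ was lost without CB replicate 1 (adjusted p = 0.0666) or CB replicate 2 (0.087), and that within Smarca4+/- passed in 7 of 20 alternatives and was lost without any single library of that genotype (adjusted p of 0.0561 to 0.296) and without either Smarca4+/+ CB library (0.106 and 0.109). Within each genotype Foxo1 and Akt1 were the 2 members that fell, against 3.76% of all genes in Smarca4+/+ and 1.5% in Smarca4+/-, where 3.72% and 2.17% rose.

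The choice of scaling changed the size of both falls and not the averaged call. Over all genes in the averaged comparison the median log2 fold change was -0.24 with TMM, and 858 genes rose while 905 fell. With RLE scaling the median was -0.12, with 982 higher and 645 lower, and total count scaling gave -0.08, with 994 higher and 533 lower. Foxo1 stood at -0.86 and -0.83 and Akt1 at -0.82 and -0.79 under those scalings. When libraries were instead scaled on 4 B cell genes, a choice made after seeing the data, the falls were -0.77 for Foxo1 (edgeR adjusted p = 0.0064) and -0.73 for Akt1 (edgeR adjusted p = 0.0145). Over all genes the median was then -0.03, with 1036 higher and 451 lower.

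**Figure D1:**
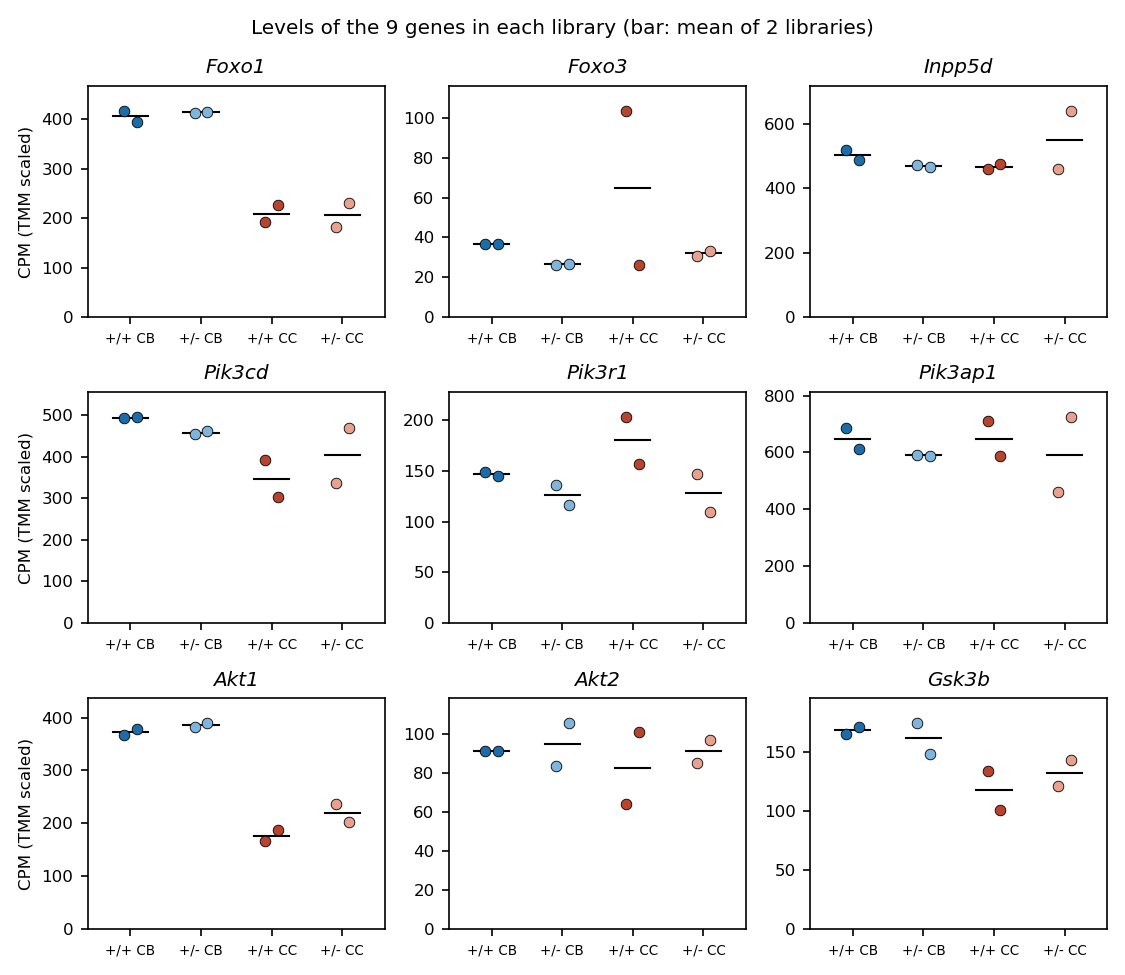
Level of each of the 9 genes in each library, in TMM-scaled CPM (vertical axis from 0), for the 4 groups of genotype (+/+ or +/-) and fraction (CB or CC), with a bar at the mean of the 2 libraries. In the Foxo1 and Akt1 panels all 4 CC libraries lie below all 4 CB libraries, and in the Foxo3 panel 1 Smarca4+/+ CC library stands at 104 CPM.

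The sequences before the start of both genes are shown because these genes fell together. They are the 250 bases upstream of a RefSeq start (GRCm38.p6, the build also called mm10), for Foxo1 at chr3:52268087-52268336 on the plus strand and for Akt1 at chr12:112674885-112675134 on the minus strand. Capitals mark the FOXO binding motif GTAAACA, searched on both strands, where it appears as TGTTTAC on the other one.
Foxo1: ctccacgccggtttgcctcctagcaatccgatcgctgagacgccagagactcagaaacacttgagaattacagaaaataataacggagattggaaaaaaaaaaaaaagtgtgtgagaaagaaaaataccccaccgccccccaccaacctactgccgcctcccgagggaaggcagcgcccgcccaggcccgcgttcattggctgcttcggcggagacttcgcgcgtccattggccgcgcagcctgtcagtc
Akt1: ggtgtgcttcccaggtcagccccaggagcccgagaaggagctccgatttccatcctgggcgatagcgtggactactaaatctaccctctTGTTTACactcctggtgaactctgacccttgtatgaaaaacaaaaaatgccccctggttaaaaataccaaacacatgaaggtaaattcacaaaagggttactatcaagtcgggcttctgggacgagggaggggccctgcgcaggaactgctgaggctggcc
The motif began 161 bases before this Akt1 start and was not found in the Foxo1 window. It was present before 1 of the 16 listed starts of the 9 genes, and before 1040 of all 32851 starts in the table (3.17%). GC content was 56.0% in the Foxo1 window and 52.0% in the Akt1 window, with a median of 52.4% over all windows. A second RefSeq start of Akt1 inside the gene had a window of 78.4% GC without the motif. A match is a description of the letters and does not show binding.

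Foxo3, the other FOXO gene of the set (ENSMUSG00000048756.11, chr10:42181841-42276755, minus strand), had the lowest mean level of the 9 in each group. It stood at 36.5 and 36.6 CPM in Smarca4+/+ CB, 26.3 and 26.6 CPM in Smarca4+/- CB, 104 and 26.2 CPM in Smarca4+/+ CC and 30.7 and 33.2 CPM in Smarca4+/- CC. The value of 104 CPM came from 58 counts in Smarca4+/+ CC replicate 1, against 16 counts in replicate 2, and no other group was as spread. The log2 fold change of 0.55 (SE 0.35, edgeR adjusted p = 0.341) averaged over genotypes did not pass the test. It rested on that library, since it was -0.12 (adjusted p = 0.78) without Smarca4+/+ CC replicate 1 and 0.87 (adjusted p = 0.0187) without replicate 2. Within Smarca4+/+ the corresponding values were 0.82 with both libraries, -0.49 without replicate 1 and 1.49 without replicate 2 (adjusted p = 0.0213), and within Smarca4+/- the log2 fold change was 0.28 (SE 0.51, edgeR adjusted p = 0.823).

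Pik3cd encodes p110-delta, the catalytic PI3K subunit of leukocytes (ENSMUSG00000039936.18, chr4:149649168-149702571, minus strand). It stood at 492 and 496 CPM in Smarca4+/+ CB and 454 and 462 CPM in Smarca4+/- CB, against 391 and 304 CPM in Smarca4+/+ CC and 338 and 470 CPM in Smarca4+/- CC. Smarca4+/- CC replicate 2 lay within the CB range, and the other 3 CC libraries lay below it. The averaged log2 fold change was -0.35 (SE 0.14, 95% interval -0.66 to -0.03, edgeR adjusted p = 0.14), and it was -0.49 and passed (adjusted p = 0.03) without that library. Within the genotypes it was -0.51 (SE 0.20, edgeR adjusted p = 0.164) in Smarca4+/+ and -0.18 (SE 0.20, edgeR adjusted p = 0.675) in Smarca4+/-, the latter -0.47 (adjusted p = 0.193) without that library.

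Pik3r1 encodes the p85-alpha regulatory subunit, which holds and restrains the catalytic subunit (ENSMUSG00000041417.15, chr13:101680563-101768217, minus strand). Its levels were 149 and 145 CPM in Smarca4+/+ CB, 136 and 116 CPM in Smarca4+/- CB, 204 and 157 in Smarca4+/+ CC and 147 and 109 in Smarca4+/- CC. Both Smarca4+/+ CC libraries were above both CB libraries of that genotype, while the Smarca4+/- libraries overlapped. The averaged log2 fold change was 0.15 (SE 0.17, 95% interval -0.22 to 0.53, edgeR adjusted p = 0.587), 0.23 without Smarca4+/- CC replicate 2 and 0.04 without Smarca4+/+ CC replicate 1.

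Pik3ap1 encodes BCAP, an adaptor that couples B cell receptors to PI3K (ENSMUSG00000025017.10, chr19:41272377-41385102, minus strand). It stood at 686 and 611 CPM in Smarca4+/+ CB, 592 and 588 CPM in Smarca4+/- CB, 709 and 587 in Smarca4+/+ CC and 459 and 726 in Smarca4+/- CC. The fractions overlapped widely, and the averaged log2 fold change was 0.003 (SE 0.15, 95% interval -0.33 to 0.34, edgeR adjusted p = 0.993), and -0.20 without Smarca4+/- CC replicate 2.

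Inpp5d, the gene of the PIP3 phosphatase SHIP1 (ENSMUSG00000026288.14, chr1:87620312-87720507, plus strand), was held at 466 to 518 CPM in the 4 CB libraries. In CC it stood at 459 and 474 CPM in Smarca4+/+ and at 459 and 640 CPM in Smarca4+/- libraries, the highest being Smarca4+/- CC replicate 2. Its averaged log2 fold change of 0.06 (SE 0.13, 95% interval -0.23 to 0.35, edgeR adjusted p = 0.791) became -0.09 without that library and had an adjusted p over 0.05 both times.

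Akt2, which encodes another AKT kinase (ENSMUSG00000004056.15, chr7:27591552-27640826, plus strand), stood at 83.7 to 106 CPM in CB and 64.3 to 101 CPM in CC, with an averaged log2 fold change of -0.09 (SE 0.20, 95% interval -0.53 to 0.34, edgeR adjusted p = 0.786). The interval does not contain the fall of Akt1. Without Smarca4+/- CC replicate 2 the value was -0.16. Gsk3b, a kinase gene whose product AKT inhibits (ENSMUSG00000022812.14, chr16:38089001-38246084, plus strand), stood at 166 and 172 CPM in Smarca4+/+ CB and 175 and 149 CPM in Smarca4+/- CB, against 134 and 101 CPM in Smarca4+/+ CC and 122 and 144 in Smarca4+/- CC. All 4 CC libraries were below all 4 CB libraries, with the nearest values at 144 and 149 CPM. The averaged log2 fold change was -0.41 (SE 0.16, 95% interval -0.77 to -0.05) and did not pass after adjustment (edgeR adjusted p = 0.129), with -0.52 (SE 0.24) in Smarca4+/+ and -0.29 (SE 0.23) in Smarca4+/-, the latter -0.44 without Smarca4+/- CC replicate 2. Foxo1, Akt1 and Gsk3b were the 3 of 9 genes that were lower in every CC library than in every CB library, against 14.8% of all genes.

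**Figure D2:**
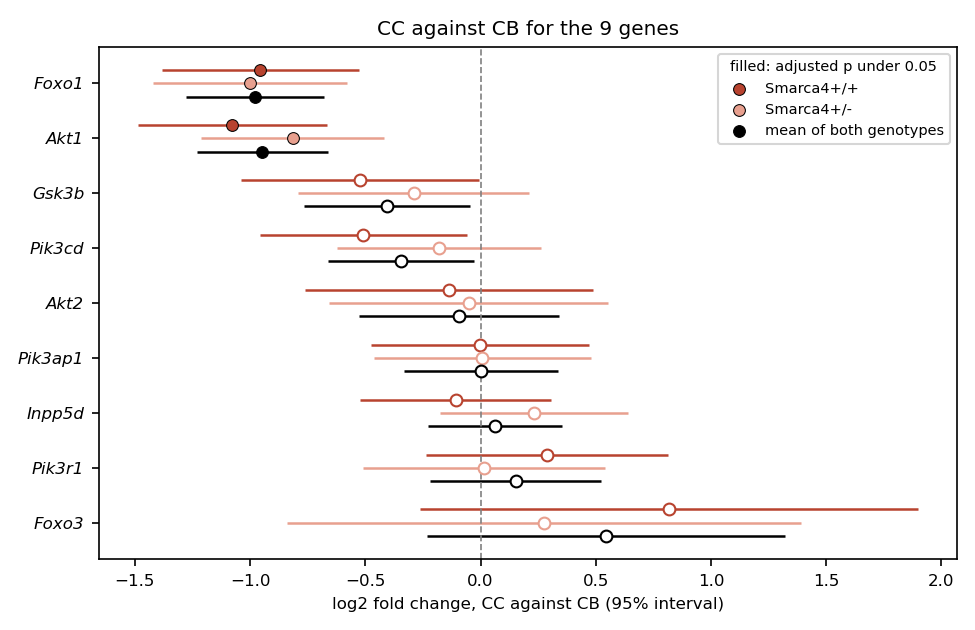
Log2 fold change of CC against CB (horizontal axis) for the 9 genes, within Smarca4+/+, within Smarca4+/- and as the mean of both, with 95% intervals of the edgeR fit and filled points for an adjusted p under 0.05. The 6 points of Foxo1 and Akt1 lie between -1.08 and -0.82, and all other points are open.

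Per kilobase of transcript the order of the 9 genes differed between the fractions. In CB of both genotypes Pik3ap1 was highest (116 ± 9.52 CPM per kb in Smarca4+/+ and 106 ± 0.551 in Smarca4+/-, SD, n = 2), followed by Akt1 (90.8 ± 1.92 and 94.2 ± 1.38), Pik3cd, Inpp5d and Foxo1 (46.9 ± 1.83 and 47.9 ± 0.140). These 5 genes were separated from one another by more than the range of their libraries in both genotypes. Gsk3b, Pik3r1 and Akt2 followed between 12.5 and 17.2 CPM per kb, with Akt2 and Pik3r1 overlapping in Smarca4+/-, and Foxo3 was last at 4.83 ± 0.0114 and 3.49 ± 0.0240 CPM per kb.

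In CC Akt1 no longer ranked next to the top, at 43.0 ± 3.48 CPM per kb in Smarca4+/+ and 53.6 ± 5.80 in Smarca4+/-, below Pik3ap1, Inpp5d and Pik3cd. Inpp5d (61.4 ± 1.38 and 72.3 ± 16.8 CPM per kb) and Pik3cd (55.6 ± 9.86 and 64.5 ± 14.9) overlapped in both genotypes, and in Smarca4+/- so did each neighbouring pair from Pik3ap1 down to Akt1. Foxo1 came next, at 24.1 ± 2.94 and 23.9 ± 3.94 CPM per kb, apart from its neighbours in both genotypes. Foxo3 again had the lowest mean, at 8.57 ± 7.24 and 4.22 ± 0.232 CPM per kb, overlapping Akt2 and Gsk3b in Smarca4+/+. In Smarca4+/+ CC replicate 1 it stood at 13.69 CPM per kb, above Gsk3b (13.63) and Akt2 (9.02).

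Ratios of 2 genes within a library do not depend on scaling. Akt1 made up 80.0% and 80.6% of the Akt1 and Akt2 counts in Smarca4+/+ CB and 82.0% and 78.7% in Smarca4+/- CB. In CC it made up 72.1% and 64.8% in Smarca4+/+ and 73.4% and 67.6% in Smarca4+/-. Every CC share was lower than every CB share, and the mean log2 ratio of Akt1 to Akt2 was 2.03 ± 0.128 in CB and 1.19 ± 0.273 in CC (SD, n = 4), a difference of -0.84 (exact permutation test, two-sided, p = 0.0286). That is the smallest p that 4 against 4 libraries allow, and it stays 0.0286 when adjusted over the 3 ratios examined.

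Foxo1 made up 92.0% and 91.5% of the Foxo1 and Foxo3 counts in Smarca4+/+ CB and 94.0% and 94.0% in Smarca4+/- CB. The CC shares were 64.8% and 89.7% in Smarca4+/+ and 85.6% and 87.4% in Smarca4+/-. All were below the CB shares, with Smarca4+/+ CC replicate 1 far below the rest. The mean log2 ratio fell by 1.38 from CB to CC (exact permutation test, two-sided, p = 0.0286, adjusted 0.0286) and by 0.892 without that library, where the smallest possible exact p is 0.0571.

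Inpp5d and Pik3cd, a phosphatase and a kinase subunit that act on the same lipid in opposite directions, had nearly equal counts in CB, with an Inpp5d share of 49.6% to 51.3%. In CC the share was 54.0% and 60.9% in Smarca4+/+ and 57.6% and 57.7% in Smarca4+/-, above every CB library. The mean log2 ratio of Inpp5d to Pik3cd was 0.03 ± 0.044 in CB and 0.44 ± 0.167 in CC (SD, n = 4), a difference of 0.41 in the same direction in both genotypes (exact permutation test, two-sided, p = 0.0286, adjusted 0.0286). The averaged log2 fold changes behind it were 0.06 for Inpp5d and -0.35 for Pik3cd with TMM. They were 0.211 and -0.193 with total count scaling, and 0.265 and -0.145 with scaling on 4 B cell genes. How the difference divides between the 2 genes thus depended on the scaling.

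Counting error alone gave wider intervals for the CC shares than for the CB shares. Exact Clopper-Pearson 95% intervals ran from 63.5% to 79.6% for the Akt1 share in Smarca4+/+ CC replicate 1 and from 79.2% to 80.8% in Smarca4+/+ CB replicate 1. Counts of 1 to 20 were even for 75.1% to 92.0% of genes in a library, so that single counts were not independent of each other. On halved counts, a choice made after seeing the data, the same intervals widened to 59.2% to 82.4% and 78.8% to 81.2%. For the Foxo1 share the halved-count intervals of Smarca4+/+ CC replicates 1 and 2 were 53.8% to 75.2% and 80.8% to 95.5%. Those 2 intervals did not overlap.

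**Figure D3:**
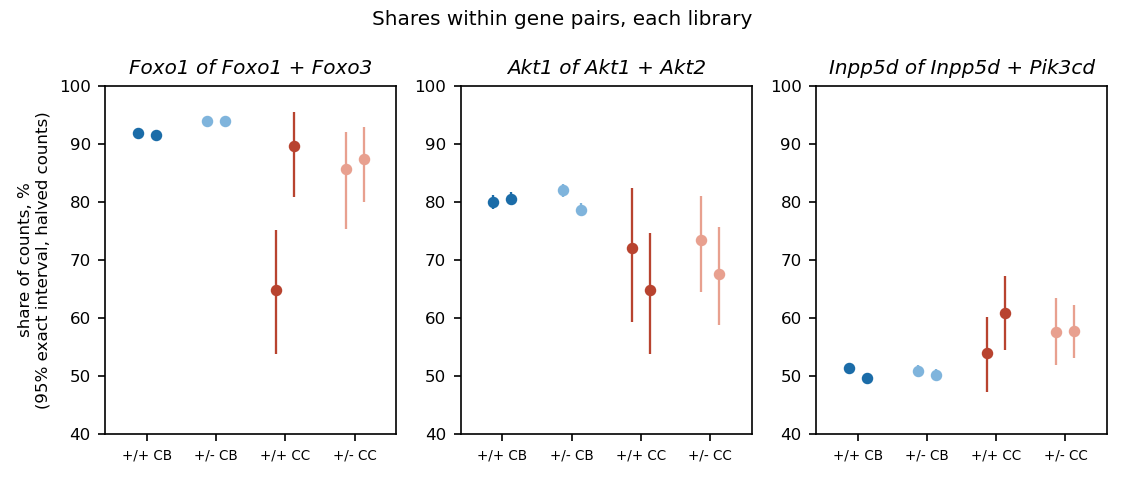
Share of the counts of a gene pair that belongs to the first gene (percent, vertical axis from 40 to 100), per library, with exact 95% intervals on halved counts. The 4 CC libraries lie below the 4 CB libraries in the panels of Foxo1 with Foxo3 and of Akt1 with Akt2, and above them for Inpp5d with Pik3cd.

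Loss of 1 Smarca4 copy changed none of the 9 genes past the test in either fraction. In CB 0 of 9 were called (all adjusted p = 1), against 0% of all genes, with 0 at an unadjusted p under 0.05 (0.646% of all genes) and 0 by DESeq2 (0.00928%). In CC 0 of 9 were called (edgeR adjusted p of 0.37 to 1), against 0.0231% of all genes, again with 0 at an unadjusted p under 0.05 (15.2% of all genes) and 0 by DESeq2 (3.3%). The background share leaves little to read from these counts, so the intervals matter more than the calls.

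Foxo1 differed between genotypes by a log2 fold change of 0.03 (95% interval -0.37 to 0.43) in CB and -0.01 (-0.46 to 0.43) in CC, which leaves differences of about that size undetected. The CC value was -0.21 without Smarca4+/- CC replicate 2. For Akt1 the values were 0.05 (-0.33 to 0.43) in CB and 0.32 (-0.11 to 0.74) in CC, where both Smarca4+/- libraries (236 and 203 CPM) were above both Smarca4+/+ libraries (166 and 186 CPM). Pik3r1 was lower in both Smarca4+/- CC libraries (147 and 109 CPM) than in both Smarca4+/+ CC libraries (204 and 157 CPM), with a log2 fold change of -0.50 (SE 0.25, edgeR adjusted p = 0.37), and -0.31 without Smarca4+/- CC replicate 2 or Smarca4+/+ CC replicate 1. Foxo3 had the widest interval, -2.20 to 0.18 around -1.01 in CC (SE 0.54, edgeR adjusted p = 0.388), and its value was 0.28 without Smarca4+/+ CC replicate 1.

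The libraries of the genotypes did not overlap for 6 of the 9 genes in CB, against 32.1% of all genes, and for 2 of the 9 in CC, against 32.6%. In CB these were Foxo3, Inpp5d, Pik3cd, Pik3r1 and Pik3ap1, lower in Smarca4+/-, and Akt1, higher, with log2 fold changes of -0.47 to 0.05. The log2 fold change from CB to CC was not shown to differ between genotypes for any member, since 0 of 9 passed the interaction test (edgeR adjusted p of 0.668 to 1), against 0% of all genes, with 0 at an unadjusted p under 0.05 (9.19% of all genes) and 0 by DESeq2 (1.2%). The interaction was -0.04 (95% interval -0.64 to 0.55) for Foxo1, -0.24 without Smarca4+/- CC replicate 2, and 0.26 (-0.31 to 0.83) for Akt1.

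**Figure D4:**
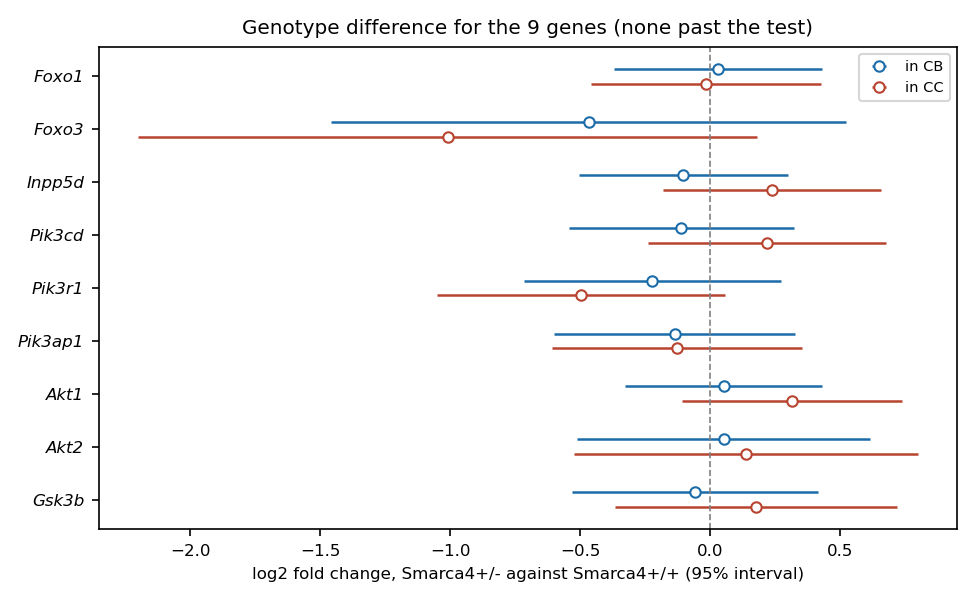
Log2 fold change of Smarca4+/- against Smarca4+/+ (horizontal axis) for the 9 genes, in CB and in CC, with 95% intervals of the edgeR fit. Every interval includes 0, and the widest belong to Foxo3.

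Other genes of the route were taken from lists of pathway genes, of which 73 were tested, and compared between CC and CB as the mean of both genotypes. The medians below stand beside a median of -0.24 over all genes, and the counts beside the shares of all genes given above. For single genes the number of alternative analyses in which the call passed is given where it was counted.

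Upstream of PI3K, 2 of 12 receptor and adaptor genes rose, 3 fell and 7 did not pass, with a median of -0.23. Cr2, which encodes a complement receptor of B cells, rose from 183 to 239 CPM in the 4 CB libraries to 436 to 745 in CC (log2 fold change 1.63, SE 0.18, edgeR adjusted p = 0.000227, passed in 19 of 19). The B cell receptor kinase gene Syk fell by 0.52 on the log2 scale (SE 0.11, passed in 13 of 19), the adaptor gene Blnk by 0.509 (SE 0.14, 7 of 19) and the receptor chain gene Cd79b by 0.436 (SE 0.13, 4 of 19, named after its value was seen). Gab2, a scaffold that binds PI3K, was called at 3.43 (SE 0.94, passed in 11 of 18), but it was at 0 in Smarca4+/+ CC replicate 2 and stood at -1.43 without Smarca4+/+ CC replicate 1.

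Among the other class I PI3K subunit genes 1 of 6 rose, 1 fell and 4 did not pass (median -0.32). Pik3cg, which encodes the gamma catalytic subunit, stood at 285 to 300 CPM in CB and 163 to 257 CPM in CC (-0.46, SE 0.13, edgeR adjusted p = 0.0398, passed in 6 of 19). Pik3r5, which encodes a regulatory partner of that subunit, was low in all libraries, with 0.316 to 1.63 CPM in CB and 7.11 to 21.3 in CC, where it rested on 4 to 13 counts (3.77, SE 0.77, edgeR adjusted p = 0.00815, passed in 12 of 17). Of 10 genes of phosphatases and inhibitors of PI3K and AKT, 2 rose, 0 fell and 8 did not pass (median 0.06). One was Pik3ip1, which encodes a membrane protein that inhibits PI3K (3.05, SE 0.64, edgeR adjusted p = 0.00908, passed in 13 of 18). It went from 0.949 to 1.98 CPM in CB to 4.74 to 26.2 in CC on 4 to 16 counts. The other was Inpp4b, a phosphatase gene (0.66, SE 0.18, edgeR adjusted p = 0.0294, passed in 10 of 19). Inpp4b stood at 62.9 to 71.2 CPM in CB, 152 and 124 CPM in Smarca4+/+ CC and 78.8 and 86.6 CPM in Smarca4+/- CC. Within the genotypes both genes passed in Smarca4+/+ and neither in Smarca4+/-.

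In the AKT, SGK and mTOR branch 1 of 20 genes rose, 3 fell and 16 did not pass (median -0.14). Pdpk1, which encodes PDK1, the kinase that activates AKT, fell by 0.645 on the log2 scale (SE 0.15, edgeR adjusted p = 0.0146, passed in 11 of 19), from 194 to 209 CPM in CB to 96.5 to 160 CPM in CC. Tsc2, an inhibitor of mTORC1 that AKT inactivates, fell by 0.736 (SE 0.18, 11 of 19), and the translation repressor gene Eif4ebp2 by 0.697 (SE 0.17, 11 of 19). Deptor, an mTOR inhibitor gene, was called at 5.98 (SE 1.43, passed in 10 of 17) on at most 12 counts a library, with 1.28 (adjusted p = 0.994) without Smarca4+/- CC replicate 2. Of the 2 other FOXO genes, Foxo4 fell from 13.2 to 17.5 CPM in CB to 2.37 to 5.36 CPM in CC on 2 to 4 counts a library (-1.91, SE 0.52, edgeR adjusted p = 0.0325, passed in 9 of 18), and Foxo6 had 0 counts in all CC libraries and at most 3.36 CPM in CB.

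Genes described as FOXO targets moved in both directions. Of 23 tested of 25 listed, 6 rose, 6 fell and 11 did not pass, with a median of -0.02. Within the genotypes 5 rose and 3 fell in Smarca4+/+, and 2 rose and 3 fell in Smarca4+/-. Those described here are S1pr1, Klf2, Il7r, Ccr7 and Txnip, which rose, and Cxcr4, Bcl2l11, Cited2, Irs2 and Cat, which fell. Of these Ccr7, Txnip, Cited2, Irs2 and Cat were named after their values were seen.

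Cxcr4, whose product keeps cells in the dark zone, fell from 192 to 257 CPM in CB to 32.2 to 78.3 CPM in CC (-2.15, SE 0.20, edgeR adjusted p = 0.000125), and passed in 19 of 19 alternatives. Bcl2l11, the gene of the death protein BIM, fell from 88.7 to 109 CPM to 37.4 to 42.5 CPM (-1.31, SE 0.20, edgeR adjusted p = 0.00145, passed in 18 of 19). Cited2 (-1.41), Irs2 (-1.20) and Cat (-0.68) passed in 12, 5 and 11 of 19. Cxcr4 is also one of the 6 dark zone markers summed above.

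Among the targets that rose, S1pr1, which encodes the receptor for exit from lymphoid tissue, went from 6.16 to 10.1 CPM in CB to 16.6 to 173 CPM in CC (3.04, SE 0.34, edgeR adjusted p = 0.000282). Klf2, a transcription factor gene that FOXO1 activates in lymphocytes, went from 2.64 to 6.71 CPM to 14.2 to 49.0 CPM (3.0, SE 0.46, edgeR adjusted p = 0.00165). Both passed in 19 of 19 alternatives, and Smarca4+/- CC replicate 2 was the lowest CC library for each.

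Il7r, encoding the interleukin-7 receptor, had 0 counts in both Smarca4+/+ CB libraries and 28.6 and 26.2 CPM in Smarca4+/+ CC, on 16 counts each. That was 374-fold higher with the 0 read as a floor of 3 counts over the group, without the error of the CC counts. In Smarca4+/- it stood at 0.316 and 0 CPM in CB and 10.7 and 4.74 CPM in CC, the latter on 8 and 4 counts. Ccr7 (3.26, on 2 to 8 counts a CC library) and Txnip (0.80) passed in 9 of 17 and 11 of 19. Txnip stood at 75.2 to 91.4 CPM in CB, 193 and 268 CPM in Smarca4+/+ CC and 124 and 61.7 CPM in Smarca4+/- CC. Smarca4+/- CC replicate 2 thus lay below every CB library for Txnip. Its interaction was -1.29 (SE 0.44, edgeR adjusted p = 0.437). Il7r is also one of the T cell markers. The 5 naive and memory B cell markers summed to 112 to 175 CPM in CB and 363 to 638 CPM in CC. The part of T cells and of naive or memory B cells in these 6 rises was not tested.

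Between genotypes 0 of the 23 FOXO targets passed the edgeR test in CB, where 1 had an unadjusted p under 0.05 and DESeq2 called 0. In CC edgeR called 0 as well, while 7 of 23 had an unadjusted p under 0.05, against 15.2% of all genes, and DESeq2 called 4 of 24, all lower in Smarca4+/-, against 3.3%. The smallest p belonged to 2 genes, S1pr1, at 113 and 173 CPM in Smarca4+/+ CC and 44.1 and 16.6 CPM in Smarca4+/- CC (-2.25, SE 0.49, edgeR adjusted p = 0.114), and the antiproliferative gene Btg1, at 518 and 455 against 275 and 266 CPM (-0.85, SE 0.18, edgeR adjusted p = 0.114). In CC both genes had the 2 Smarca4+/- libraries below the 2 Smarca4+/+ libraries. Over all genes the genotypes did not overlap in CC, in either direction, for 32.6%. In CB the genotypes overlapped for both genes. The summed T cell markers also went down, from 534 and 515 CPM in Smarca4+/+ CC to 232 and 200 CPM in Smarca4+/- CC. Of these sums Lck made up 161 and 204 CPM in Smarca4+/+ CC and 100 and 166 CPM in Smarca4+/- CC. The neutrophil markers were at 0 in Smarca4+/+ CC and at 207 and 40.3 CPM in Smarca4+/- CC. The naive and memory B cell markers went from 593 and 638 CPM in Smarca4+/+ CC to 418 and 363 CPM in Smarca4+/- CC. The dark zone markers went from 1242 and 1184 CPM to 1924 and 2891 CPM. Of these dark zone sums Mki67 made up 1129 and 1027 CPM in Smarca4+/+ CC and 1777 and 2574 CPM in Smarca4+/- CC. The part of these cells in the values of S1pr1 and Btg1 was not tested.

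**Figure D5:**
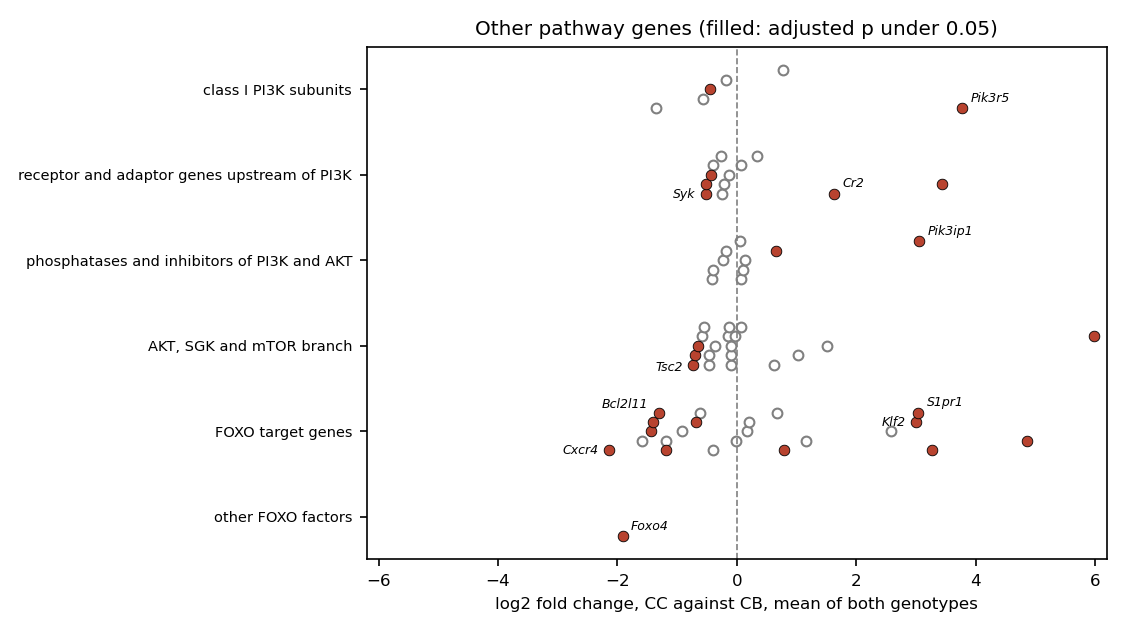
Log2 fold change of CC against CB as the mean of both genotypes (horizontal axis) for the listed genes of each pathway group, filled where the adjusted p was under 0.05, with vertical offsets only to separate points. FOXO targets lie on both sides of 0, with Cxcr4 at -2.15 and S1pr1 at 3.04, and Il7r, Foxo6 and Trib3 lie outside the axis.

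Across the 8 libraries the genes whose log2 CPM was most like that of Foxo1, among 5084 genes with at least 10 counts in every library, were Rnf19b (Pearson r = 0.992), Gtf3c1 (0.988), Mtf2 (0.987), Dap (0.986) and Cdc25b (0.986). These correlations mostly describe the difference between the fractions, which also differ in depth. Rnf19b, for example, stood at 163 to 180 CPM in CB and 57.2 to 86.6 CPM in CC, and Cdc25b, a cell cycle phosphatase gene, at 415 to 484 and 96.1 to 177 CPM. Within the set Akt1 was closest to Foxo1 (r = 0.929), followed by Gsk3b (0.777) and Pik3cd (0.735), while Inpp5d (-0.03) was not related to it and Foxo3 was at -0.41.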

How the data were processed

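The authors deposited a table of raw counts, without normalization, from total RNA after removal of ribosomal RNA. The submitters' processing notes name FastQC, STAR, featureCounts, Subread, R 4.2.1 and the mm10 build, with no strand setting and no rule for read pairs. The other deposited unit, gene length in bases, served only for levels per kilobase. Of 55421 identifiers 55154 had a symbol in GENCODE M21.

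The fit used edgeR 4.0.16 under R 4.3.3 (filterByExpr with a minimum count of 10 and a minimum total of 15, TMM, glmQLFit and glmQLFTest). All 8 libraries entered 1 fit with a mean per group, which left 4 residual degrees of freedom, and 12997 genes were tested two-sided with Benjamini-Hochberg adjustment at 0.05. Standard errors are the size of the fold change over the root of F. The fit was tested on simulated counts with a common mean per gene and planted changes, which did not imitate the even counts. The outcome is not reported here. Replicate numbers were not used as pairs, since same-numbered libraries deviated together at only -0.05 to 0.05. Depth limits CC: 3 counts, read as the floor for a count of 0, equal 3.56 to 5.36 CPM there and 0.140 to 0.158 CPM in CB. Clopper-Pearson intervals and floors cover counting error only, whereas those of the edgeR fit include the spread between libraries.

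Alternatives were DESeq2 1.42.0, limma-voom (limma 3.58.1), RLE and total count scaling, no filter, at least 50 counts in 2 libraries, no ribosomal RNA or immunoglobulin genes, a replicate block with and without genotype, only the groups compared, CB thinned to the mean CC total of 657641 counts, each library left out, and, added later, scaling on 4 B cell genes. Promoters came from RefSeq (GRCm38.p6) and all 9 genes matched. Genes named beside the 9 were up to 4 called genes of each list with the largest change and at least 5 CPM, or the 2 with the smallest p where none was called. Some listed genes are not reported here by name. The 9 genes and all lists were chosen with earlier results of these data known.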

Additional observations from a re-analysis of the deposited data

How the results depend on the processing

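The averaged falls of Foxo1 and Akt1 passed in all 19 alternatives. Within genotypes the number of members called, 2 in each, was lower in several settings. In Smarca4+/+ it was 1 with limma-voom, with total count scaling and with only the groups compared, 0 with scaling on 4 B cell genes, and 0 to 3 with single libraries left out. In Smarca4+/- it was 1 with limma-voom, RLE or total count scaling, at least 50 counts in 2 libraries and thinned CB, 0 with only the groups compared and with scaling on 4 B cell genes, and 0 to 2 with single libraries left out.

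Members near 0 in the averaged comparison changed sign. Akt2 was at 0.027 with DESeq2, 0.026 with RLE, 0.062 with total counts, 0.005 with at least 50 counts, 0.045 with thinned CB and 0.123 with B cell scaling. Pik3ap1 was at -0.010 with limma-voom, -0.042 without the filter, -0.008 without ribosomal RNA and immunoglobulin genes and -0.017 with the replicate block within genotype. Pik3cd in Smarca4+/- was at 0.039 with thinned CB, and the genotype difference of Foxo1 in CC at 0.005 without the filter. With single libraries left out, the averaged values ran from -0.297 to 0.035 for Akt2, -0.20 to 0.13 for Pik3ap1, -0.087 to 0.156 for Inpp5d, -0.12 to 0.87 for Foxo3 and -1.43 to 4.03 for Gab2. Foxo3 ran from -0.49 to 1.49 in Smarca4+/+ and Pik3cd from -0.466 to 0.016 in Smarca4+/-. The genotype difference in CC ran from -1.70 to 0.28 for Foxo3 and from -0.21 to 0.14 for Foxo1, whose interaction ran from -0.24 to 0.10. The cause of these shifts was not tested.

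The ratio differences kept their sign with each library left out, from -0.929 to -0.732 for Akt1 to Akt2, -1.637 to -0.892 for Foxo1 to Foxo3 and 0.345 to 0.482 for Inpp5d to Pik3cd, but 3 against 4 libraries cannot reach an exact p under 0.0571. With the replicate block (4 pairs, smallest exact p of 0.125) they were -1.379 for Foxo1, -0.837 for Akt1 and 0.412 for Inpp5d. Among the 9 genes the block changed no other call. The deviations of same-numbered libraries correlated at -0.046 to 0.053, so the numbers were not shown to pair libraries. At the depth of CC this cannot show that they do not.

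Counts over all genes moved more. DESeq2 called 2047 genes against 973 in Smarca4+/+, 1386 against 477 in Smarca4+/-, 712 against 3 for genotype in CC and 259 against 0 for the interaction. Without the filter these were 1651, 1142, 323 and 46, and 13 against 0 for genotype in CB. Thinned CB, with fewer genes tested (8222), gave 602, 289 and, averaged, 1026 against 1763. Using only the groups compared gave 292 in Smarca4+/+ and 308 in Smarca4+/-. With single libraries left out the calls ran from 222 to 1413 in Smarca4+/+, 0 to 932 in Smarca4+/- and 612 to 2303 averaged. Between genotypes the other settings gave 0 to 5 calls in CB and in CC, and 0 to 13 for the interaction.

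Depth limits the CC values most: members rested on 16 to 612 counts a library there, against 499 to 13505 in CB.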

Other observations

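Small counts in the deposited table were mostly even. Among genes with 1 to 20 counts, 75.1% to 92.0% of values were even in each library, and 167 genes stood at 1 count against 1355 at 2 in Smarca4+/+ CC replicate 1. Among genes with 50 to 200 counts the share was 57.2% to 74.7%. How read pairs were counted is not given in the sources used here. Intervals that treat each count as 1 molecule are too narrow for such values, which touches the CC libraries most.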
